A study of Mus musculus with 12 samples.

Results

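The TNF superfamily is a set of trimeric ligands, and the TNF receptor superfamily the receptors that bind them. Members were taken by symbol: every protein-coding gene whose symbol starts with Tnfrsf or Tnfsf, plus Tnf, Lta, Ltb, Ltbr, Fas, Fasl, Cd40, Cd40lg, Cd27, Cd70, Ngfr, Eda2r and Edar. This gave 45 genes, all with a row among the 27179 gene IDs of the count tables, of which 20983 are protein-coding. They comprised 27 receptors, 17 ligands and 1 read-through gene model, Tnfsfm13, which joins Tnfsf12 and Tnfsf13.

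The cells were NIH3T3, an immortalized line of mouse embryonic fibroblasts, of genotype RelA-/-, with RelA supplied as a fusion to the red fluorescent protein DsRed. RelA is the NF-κB subunit p65, which many of these receptors activate, so every library came from cells whose RelA is the fusion protein; whether the line is 1 clone is not stated. Polyadenylated RNA was sequenced after 2 h in a microfluidic device with IL-1β at 0.2 ng/mL, in 3 replicates. All 9 tables labelled LPS, PAM or media had the same bytes as the one for IL-1 replicate 3, so only the IL-1 group was used, no group was compared with another, and the levels do not show what IL-1β changed.

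Receptors of this superfamily carry cysteine-rich repeats outside the cell and fall into kinds by what lies inside. Death domain receptors such as Fas recruit FADD and caspase-8 or, as TNFR1 does, TRADD and RIPK1. Another kind binds TRAF adaptors directly and leads to NF-κB and MAP kinase signalling, through the noncanonical branch (NIK, p100 and RelB) for receptors such as LTβR and Fn14. Decoy receptors bind ligand without a signalling tail. Most of the ligands are known from lymphocytes and myeloid cells, while fibroblasts and other stromal cells are among the cells that respond to them.

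The 3 libraries held 17254518, 18091073 and 18578859 counts. Levels are given in CPM, the counts scaled to the library total, as mean ± SD over the 3 libraries, and genes are compared with each other in CPM per kb of merged exons. Detected means that each of the 3 libraries reached 1 CPM. With no count in a library, a level of 0.161 to 0.174 CPM (3 counts) is still possible there, and with none in any library a level of 0.0556 CPM. Counts are reads, not molecules, so these limits cover counting error only. Whether the replicates were grown apart is not stated in the labels, and their spread may be technical. Rela, the targeted gene, had 37.1, 30.5 and 38.9 CPM, in which fusion and endogenous transcripts cannot be told apart. All 7 fibroblast markers were detected, with summed levels of 5305 to 5391 CPM, and none of 11 leukocyte markers, 4 endothelial or 5 epithelial markers was. The leukocyte list summed to 0.111 to 0.695 CPM, with Cd3e, Cd3g, Cd8a and Ncr1 at 0 in every library and Ptprc at 3, 0 and 6 counts. In bulk RNA, fewer cells of a type and less RNA per cell cannot be told apart.

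A larger share of the receptors than of the ligands was detected. Of the 45 members, 15 were detected, against 51.1% of all protein-coding genes. Receptors accounted for 13 of these, 48.1% of the 27 receptors and near the share of all genes. Ligands accounted for 2 of 17, or 11.8%, well under that share. Another 19 members had some counts below the minimum, and 11 had none in any library. Summed over all members of each side, receptors reached 414 ± 7.95 CPM per kb and ligands 8.59 ± 0.962. The receptor sum was 46.5, 44.7 and 54.9 times the ligand sum in replicates 1 to 3, and 74.9 times with the length of the longest transcript in place of merged exons. Tnfrsf12a alone made up 45.9% ± 1.14 (SD, n = 3) of the receptor sum.

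**Figure D1:**
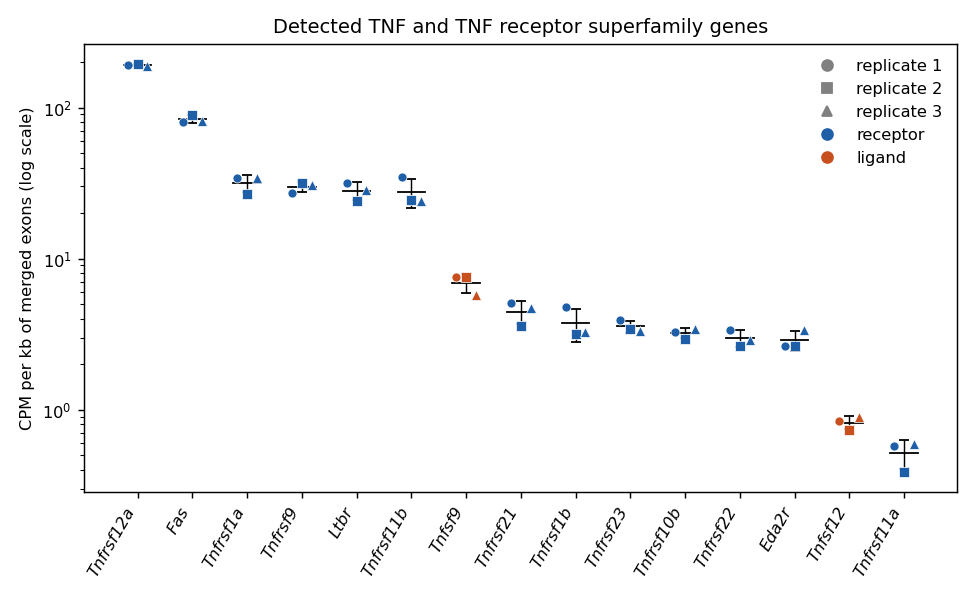
Levels of the 15 detected members in CPM per kb of merged exons (log axis), in descending order of the mean; point shapes are the 3 libraries, blue is receptor and orange ligand, horizontal lines the means and bars ± 1 SD. Tnfrsf12a and Fas stand above all others in every library, 4 receptors lie together at means of 27.7 to 31.7 CPM per kb, and the 2 detected ligands are Tnfsf9 and Tnfsf12.

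Tnfrsf12a encodes Fn14, the small receptor for TWEAK that is known to be induced by growth factors in fibroblasts. It lies on chromosome 17 at 23675445 to 23677449 (GRCm38, minus strand). It had 367, 373 and 363 CPM in replicates 1 to 3. The libraries differed by 1.03-fold at most, and the SD was 1.11 times that of counting alone, below that of every other detected member but Tnfsf12. Per kb it stood at 190.4 ± 2.61, above 97.7% of the 10704 detected protein-coding genes with a known length; with its longest transcript as length it would be 374.

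Fas, the death receptor for Fas ligand (chromosome 19, 34290647 to 34327775), came next. It had 166, 184 and 169 CPM, or 83.9 ± 4.69 CPM per kb. No value of Fas came near those of Tnfrsf12a, whose mean per kb was 2.27 times higher, and none overlapped the next gene, Tnfrsf1a, 2.65 times lower.

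Then came 4 receptors whose order per kb was not resolved. Tnfrsf1a (chromosome 6, 125349723 to 125362483) encodes TNFR1, the death domain receptor for TNF. It had 88.4, 69.8 and 88.1 CPM, lowest in replicate 2, or 31.7 ± 4.11 per kb. Tnfrsf9 (chromosome 4, 150920155 to 150946104) encodes 4-1BB, best known as a costimulatory receptor of T cells. It had 73.8, 85.6 and 83.9 CPM, lowest in replicate 1, or 29.8 ± 2.35 per kb. Ltbr (chromosome 6, 125306571 to 125313885), the lymphotoxin β receptor of stromal cells, had 74.6, 56.8 and 67.3 CPM, or 28.1 ± 3.79 per kb. Tnfrsf11b (chromosome 15, 54250619 to 54278484) encodes osteoprotegerin, the secreted decoy for RANKL and TRAIL. It had 97.2, 68.9 and 67.8 CPM, or 27.7 ± 5.91 per kb. The ranges of each neighbouring pair among these 4 overlapped, and the mean of each was within 1.06 times that of the next.

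Below them Tnfsf9, the ligand of 4-1BB, was the highest ligand. It had 9.68, 9.67 and 7.43 CPM, lowest in replicate 3, or 6.92 ± 1.01 per kb, with the mean of Tnfrsf11b 3.998 times higher. A group of 6 receptors followed, between 2.88 and 4.46 CPM per kb. Tnfrsf21, the death domain receptor DR6, had 20.9, 14.7 and 19.4 CPM. Tnfrsf1b, which encodes TNFR2, a TRAF-binding receptor for TNF, had 18.2, 12.1 and 12.4 CPM, highest in replicate 1. Tnfrsf10b, the mouse TRAIL death receptor, had 17.9, 16.03 and 18.6 CPM, and its 3.21 CPM per kb would be 5.51 with the longest transcript as length. The decoys Tnfrsf23 and Tnfrsf22, which bind TRAIL without a death domain, had 15.6, 13.5 and 13.2 CPM and 14.3, 11.1 and 12.2 CPM. Eda2r, the receptor for the A2 form of ectodysplasin, had 15.4, 15.6 and 19.8 CPM, highest in replicate 3. Neighbours in this group overlapped in all 5 steps of the order.

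The last 2 detected members were Tnfsf12 and Tnfrsf11a. Tnfsf12, which encodes TWEAK, had 1.28, 1.11 and 1.35 CPM (22, 20 and 25 counts), or 0.820 ± 0.0815 per kb. Tnfrsf11a, which encodes RANK, the receptor for RANKL on osteoclast precursors, had 3.42, 2.32 and 3.55 CPM, or 0.518 ± 0.113 per kb. Tnfsf12 was the higher per kb in every library, although Tnfrsf11a was higher in CPM. Of the 14 steps between neighbours in the whole order, 6 separated the libraries completely and 8 did not.

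Some values are uncertain because gene models share sequence. Of the 50-base words in the longest transcript of Tnfrsf22, 28.1% also occur in transcripts of other genes, first among them Tnfrsf23, and 23.4% of those of Tnfrsf23 do, so the split between these decoys depends on how shared reads were counted. Exons of the read-through model Tnfsfm13 overlap 48.3% of the exon bases of Tnfsf12 and 60.05% of those of Tnfsf13. How reads in such shared exons were counted is not stated, so the values of Tnfsf12 and Tnfsf13 and the absence of counts for Tnfsfm13 are uncertain. A noncoding gene on the other strand overlaps 14.9% of the exon bases of Tnfsf9. For Tnfrsf12a, Fas, Tnfrsf1a, Tnfrsf9, Ltbr, Tnfrsf11b and Tnfrsf1b no 50-base word was shared with another gene. Of the words of Tnfrsf10b, 9.74% were.

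By signalling class, all 3 decoys, 4 of 7 death domain receptors and 6 of 16 receptors that bind TRAFs were detected. The classes are small, their difference was not tested, and 51.1% of all protein-coding genes were detected. TRAF-binding receptors together reached 257 ± 1.53 CPM per kb, most of it Tnfrsf12a, death domain receptors 123 ± 0.606 and decoys 34.2 ± 6.60. The death domain receptors not detected were Tnfrsf25 (DR3, which costimulates T cells) at 8, 8 and 7 counts, and Ngfr (p75, the neurotrophin receptor) and Edar, both with no count. Of the TRAF-binding receptors, Tnfrsf18, Tnfrsf14, Cd40 and Tnfrsf4, which encode GITR, HVEM, CD40 and OX40 and are best known from lymphocytes and antigen-presenting cells, had 23 to 34 counts in all, or 0.428 to 0.630 CPM. The 3 receptors of BAFF and APRIL, known from B cells and plasma cells, had 6 (Tnfrsf13c), 1 (Tnfrsf13b) and 0 (Tnfrsf17) counts in all. Cd27 had 1, Tnfrsf19 (TROY) 2 and Tnfrsf8 (CD30) none. Tnfrsf26, a receptor of unassigned class here, had 0, 6 and 5 counts.

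On the ligand side, Tnf, Lta, Fasl, Cd40lg, Tnfsf8 and Tnfsf14 had no count in any library. Tnfsf10 (TRAIL) and Tnfsf11 (RANKL) lay just under the minimum. Tnfsf10 had 21, 11 and 17 counts, or 1.22, 0.608 and 0.915 CPM, and so reached 1 CPM in replicate 1 only. Tnfsf11 had 12, 11 and 18 counts, or 0.695, 0.608 and 0.969 CPM. Tnfsf15 (TL1A) had 2, 18 and 0 counts, nearly all of them in replicate 2. The rest had 9 counts or fewer over the 3 libraries: Tnfsf13 (APRIL) 9, Tnfsf13b (BAFF) 5, Tnfsf4 (OX40 ligand) 4, Ltb 3, and Cd70 and Tnfsf18 (GITR ligand) 1 each.

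Matching each receptor with its ligands gave 28 pairs for 21 receptors. In 2 pairs both partners were detected, in 13 only the receptor and in 13 neither. No pair had a detected ligand and an undetected receptor. Of the 11 detected receptors with a ligand in the list, 9 thus had none that was detected. The remaining detected receptors are Tnfrsf21, for which no ligand of the family was listed, and Eda2r, whose ligand Eda, outside the family by symbol, had 0.483 ± 0.171 CPM.

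**Figure D2:**
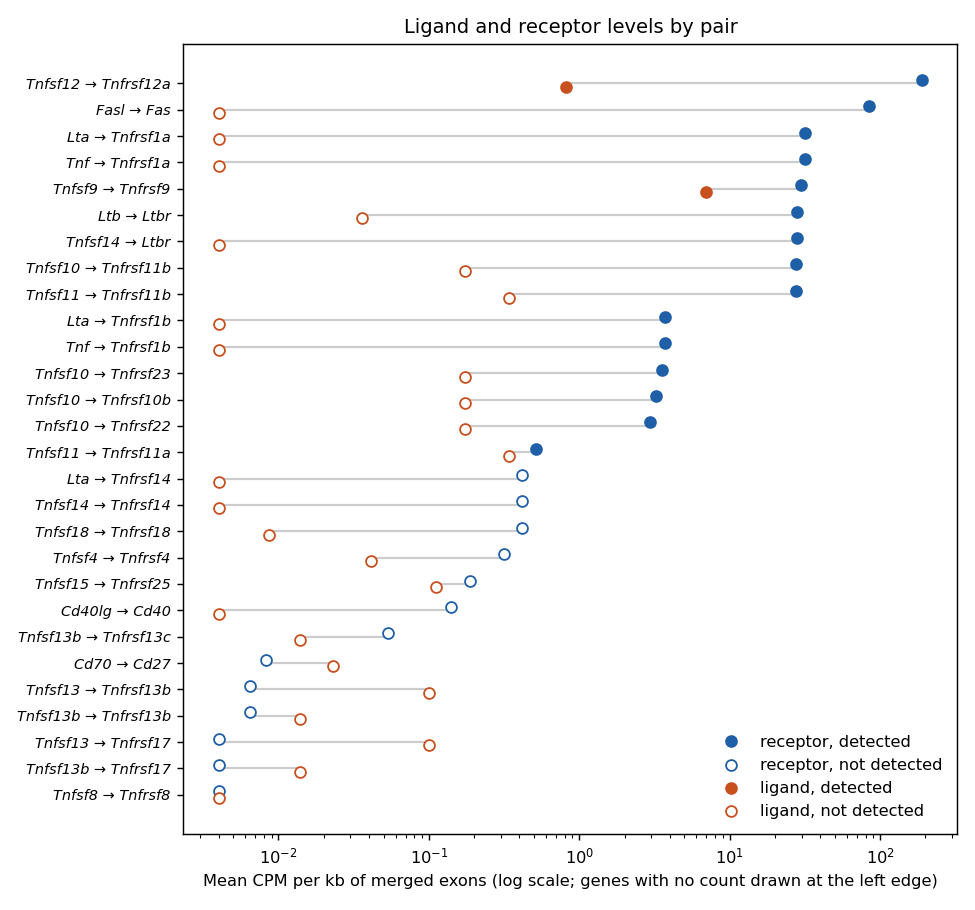
Mean level of receptor (blue) and ligand (orange) in each of the 28 pairs, in CPM per kb of merged exons (log axis); filled points are detected, and genes with no count are drawn at the left edge. Only the TWEAK and 4-1BB pairs have both points filled, and in all 15 pairs with a detected receptor the receptor is the higher point.

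The pairs with both partners detected were of unlike balance. Tnfrsf9 was 3.61, 4.19 and 5.35 times Tnfsf9 per kb in replicates 1 to 3. Tnfrsf12a was 226, 265 and 212 times Tnfsf12, with the doubt about Tnfsf12 given above. RNA of 4-1BB was thus far closer in level to that of its ligand than Fn14 RNA was to that of TWEAK.

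For TNF and lymphotoxin, the receptors TNFR1, TNFR2 and LTβR were detected and the ligands were not. Tnfrsf1a was at least 934-fold higher per kb than Tnf and at least 788-fold higher than Lta, with each ligand set at 3 counts over the 3 libraries together. Tnfrsf1b was at least 109.6-fold higher than Tnf, and Ltbr at least 934-fold higher than Tnfsf14. Ltb, the ligand that anchors LTα at the cell surface and binds LTβR with it, had 0, 2 and 1 counts. Fas was at least 2922-fold higher than Fasl. Each of these receptors was detected, and none of the ligands paired with them was. Tnfrsf14 (HVEM), also paired with Lta and Tnfsf14, was itself not detected, at 0.600 CPM.

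The TRAIL and RANKL systems had ligand RNA just below the minimum. The TRAIL death receptor Tnfrsf10b was 14.2, 25.5 and 19.7 times Tnfsf10 per kb, and the membrane decoys Tnfrsf22 and Tnfrsf23 were 14.6, 22.7 and 16.7 times and 21.9 ± 6.66 times. With merged exons as length, the levels per kb of the death receptor overlapped those of both membrane decoys. This depended on the length used. With the longest transcript the mean of Tnfrsf10b was 5.51, against 4.20 for Tnfrsf23 and 3.00 for Tnfrsf22. Osteoprotegerin RNA exceeded that of either of its ligands in every library, at 111, 90.0 and 55.5 times Tnfsf11 and 166 ± 39.6 times Tnfsf10. RANK RNA was close to that of RANKL, at 1.84, 1.43 and 1.37 times. At a minimum of 0.5 CPM, Tnfsf10 and Tnfsf11 count as detected, and the pairs with both partners detected rise from 2 to 8; at 2 CPM Tnfsf12 drops out and 1 pair is left.

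Genes of the pathway list were detected almost throughout, 30 of 32 against the 51.1% of all protein-coding genes. The list was chosen with earlier results of these data known, so this share is a description only. Most of the listed genes act downstream of these receptors, but the list also holds the ligand Eda and the membrane proteases Adam10 and Adam17. The highest per kb were the initiator protease Casp8 at 36.0 ± 2.90, the p100 precursor gene Nfkb2 at 24.5 ± 3.36, the ubiquitin ligase subunit Rbck1 at 22.5 ± 1.96, the TNFR1 adaptor Tradd at 22.2 ± 0.902, Relb at 21.6 ± 2.21 and the ligase subunit Sharpin at 18.2 ± 0.367 CPM per kb. Casp8 had 98.5, 114 and 100.2 CPM, highest in replicate 2, as were 26.7% of all detected protein-coding genes. Adam17, the sheddase of TNF and its receptors, had 12.5 ± 0.598 CPM per kb. Among the detected genes of the list, the noncanonical kinase gene Map3k14 (NIK) had the largest ratio of highest to lowest library, 2.43-fold, at 11.1, 4.59 and 8.18 CPM. The 2 genes not detected both belong to the ectodysplasin branch: Eda, and Edaradd, the adaptor of Edar, at 0.350 ± 0.241 CPM. With Edar at no count, receptor, adaptor and ligand of that branch were all undetected, while Eda2r was present.

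Relative to counting error, the libraries differed most in Tnfrsf11b. For 14 of the 15 detected members the SD exceeded that of counting alone, by up to 7.998 times for Tnfrsf11b. For 13 the highest library was under 1.5 times the lowest. Above that ratio were Tnfrsf1b at 1.51-fold and Tnfrsf11a at 1.53-fold. The matching shares of all detected genes were not computed, so neither count is read as particular to the members. Of the 15, 8 were highest in replicate 1, 3 in replicate 2 and 4 in replicate 3, against 46.1%, 26.7% and 27.3% of all detected protein-coding genes, so these counts lie near the background. With TMM or relative log expression factors, 6 of the 15 were highest in replicate 1. The share of all genes was not computed with those factors, so this count has no background beside it.

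All 3 decoys were highest in replicate 1, under each of the 3 scalings. With library totals, 46.1% of all detected protein-coding genes were highest there too. The decoys summed to 127, 93.5 and 93.2 CPM, most of it Tnfrsf11b at 97.2, 68.9 and 67.8 CPM. Tnfrsf22 and Tnfrsf23 share sequence, so their values are not independent, and no shift of decoys as a class is read from this. Tnfrsf11b was 0.50 higher in log2(CPM + 0.5) in replicate 1 than the mean of the other libraries, and Tnfrsf1b 0.56 higher. The median over the 15 members was 0.17 and over all 10724 detected protein-coding genes 0.04. Interferon-stimulated genes, a list that was not planned beforehand, were also higher in replicate 1. All 8 of the list were highest there, against 46.1% of all detected protein-coding genes, by a median of 0.97. They summed to 359, 189 and 161 CPM. Tnfsf10, itself known as an interferon-responsive gene, lay below the minimum. With 21, 11 and 17 counts and an SD 1.35 times that of counting alone, its order of libraries is not read further. On the same log2 scale, the 15 detected members ran from -0.20 (Tnfrsf9) to 0.56 (Tnfrsf1b) in replicate 1. Whether the levels of the interferon-stimulated genes and of the members in replicate 1 are related was not tested.

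**Figure D3:**
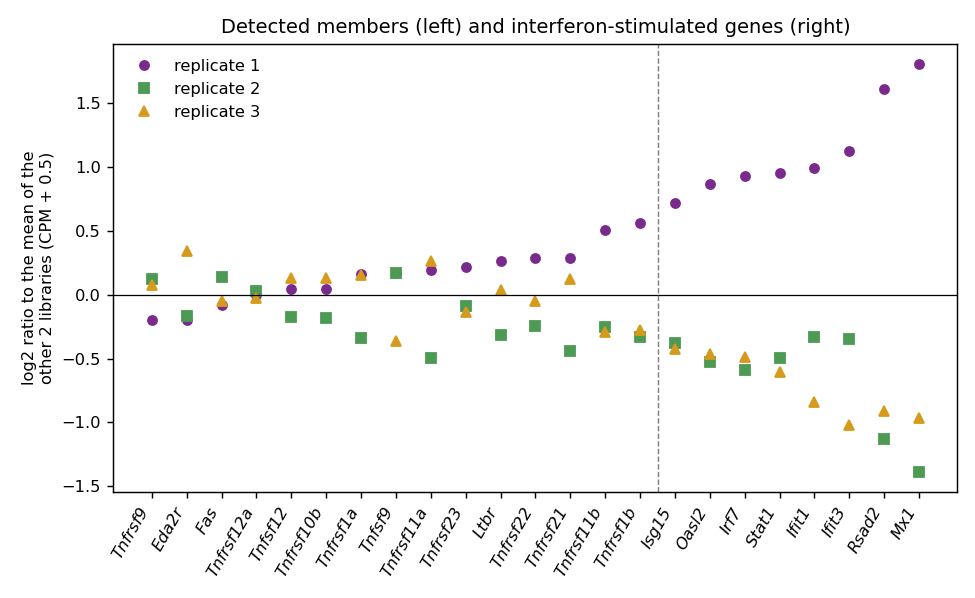
Level of each library relative to the other 2 averaged, as a log2 ratio of CPM + 0.5, for the 15 detected members (left of the dashed line) and 8 interferon-stimulated genes (right), each in order of replicate 1. The members stay between -0.50 and 0.56, while the interferon-stimulated genes reach 1.80 in replicate 1.

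Many members lie next to each other in the genome. With gaps of at most 150 kb, 23 members fell into 9 clusters, and 7 of the 23 were detected, near the 15 of 45 among all members. The clusters are given as a description, and nothing particular to them is read from the counts. Detected and undetected members stood side by side in 5 clusters, and the other 4 had no detected member. On chromosome 6, Cd27 had 1 count, while Ltbr, 69.4 kb away, and Tnfrsf1a, 35.8 kb further, had 66.2 ± 8.93 and 82.1 ± 10.7 CPM. On chromosome 4, Tnfrsf1b had 14.2 ± 3.46 CPM and Tnfrsf8, 20.3 kb away, none. On chromosome 17, Tnfsf9 had 8.93 ± 1.30 CPM, Cd70, 38.2 kb away, 1 count and Tnfsf14 none. The decoys Tnfrsf22 and Tnfrsf23 on chromosome 7 stood at 12.5 ± 1.62 and 14.1 ± 1.31 CPM beside Tnfrsf26, 6.96 kb from Tnfrsf22, at 0.200 ± 0.176 CPM. Ltb, Tnf and Lta, which lie within 11.1 kb of chromosome 17 (35194507 to 35205578), had 3 counts among them.

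**Figure D4:**
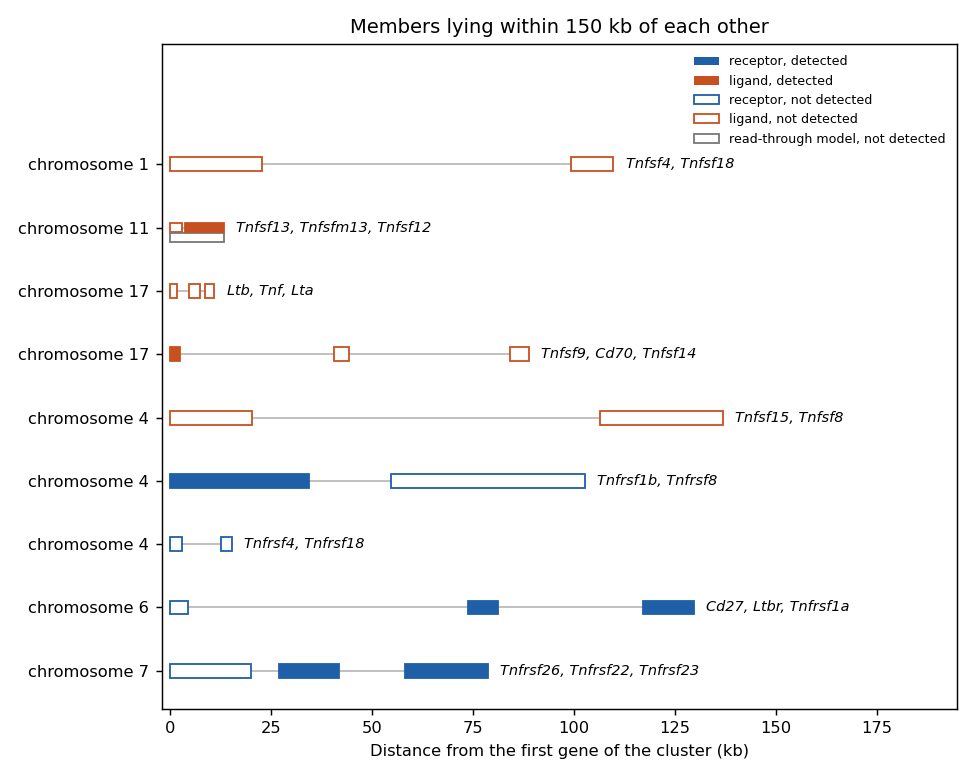
The 9 clusters of members, each drawn to scale from the start of its first gene (distance in kb); boxes are gene spans of RefSeq on GRCm38, filled where the gene was detected. Filled and open boxes lie side by side in 5 clusters, and the Ltb, Tnf and Lta cluster is open throughout.

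Promoter sequence was compared next, since the selection by symbol did not use it. Windows of the 250 bases upstream of annotated starts came from RefSeq (GRCm38.p6) and were found for 35 of the 45 members, 10 of the 15 detected and 25 of the 30 others; Cd40, Cd40lg, Cd70, Tnfrsf10b, Tnfrsf11b, Tnfrsf22, Tnfrsf26, Tnfsf12, Tnfsf4 and Tnfsf9 had no entry. All 10 detected members with a window are receptors. The CpG ratio is the number of CG steps over that expected from the C and G content of the window. Averaged over the windows of a gene, it exceeded 0.6 in 5 of the 10 detected members and in none of the 25 others. Across all protein-coding genes, 71.4% of detected and 17.6% of undetected genes exceeded it, both more than among the members. The median was 0.60 for detected members, below the 0.74 of all detected genes, and 0.37 for undetected members, above the 0.25 of all undetected genes. For the 12 undetected receptors alone the median was 0.43, and for the 12 ligands, all undetected, 0.36. Values of detected and undetected receptors overlapped, with detected Tnfrsf1a at 0.48 and undetected Tnfrsf8 at 0.54. The difference between their medians was not tested. The highest ratio, 0.92, belonged to Tnfrsf11a, which had the lowest level per kb of the detected members. The lowest among detected members were those of Eda2r at 0.23 and of both windows of Tnfrsf9, at 0.35 and 0.27. By level per kb, Tnfrsf9 ranked 4 and Eda2r 13 of the 15 detected members, so these low ratios fell at a high and at a low level. Whether the ratio went with the level among detected members was not tested.

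**Figure D5:**
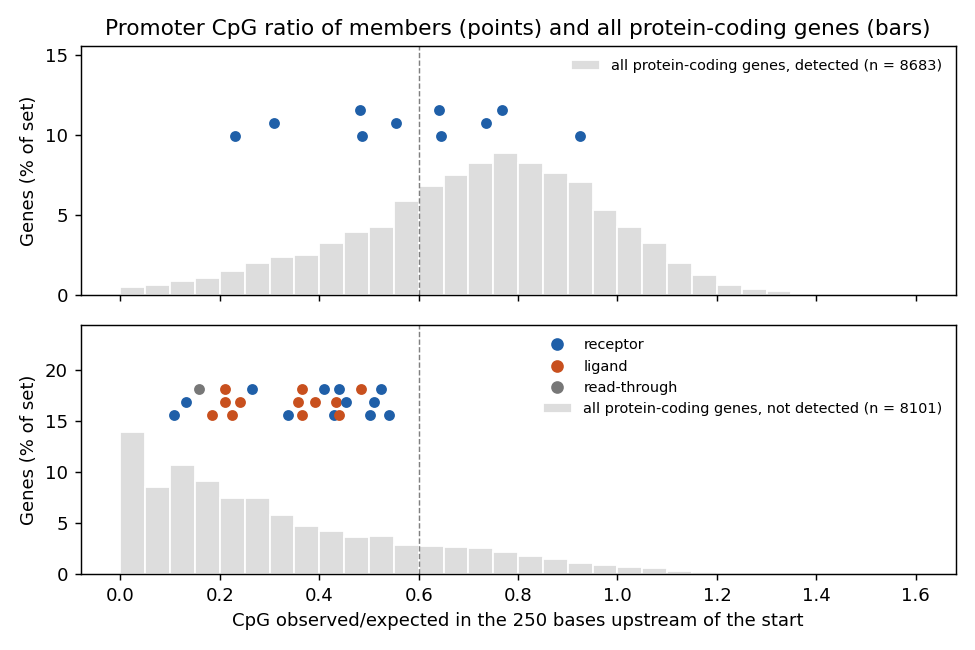
CpG ratio of the 250 bases upstream of the start for detected (top) and undetected (bottom) genes; bars give the share of all protein-coding genes per bin of 0.05 and points the members, spread in height for legibility only, with a dashed line at 0.6. In the upper panel 5 of 10 points lie right of the line, and in the lower panel 0 of 25 do.

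Examples of a higher and a lower ratio are the windows of Tnfrsf12a (chr17:23677450-23677699, minus strand, 15 CG steps, ratio 0.74) and of Tnfsf14, a ligand with no count (chr17:57194182-57194431, minus strand, 4 CG steps, ratio 0.21). They are shown 5′ to 3′ as the most abundant member and a ligand at 0 on the same chromosome, with each CG step in capitals. Tnfsf14 is the lowest of the ligands at 0 on that chromosome. Tnf and Lta there had 10 and 9 CG steps (ratios 0.48 and 0.43). Ngfr, a receptor with no count, had 16 (ratio 0.52). In Tnfrsf12a most of the CG steps crowd toward the start, at the right end.
Tnfrsf12a: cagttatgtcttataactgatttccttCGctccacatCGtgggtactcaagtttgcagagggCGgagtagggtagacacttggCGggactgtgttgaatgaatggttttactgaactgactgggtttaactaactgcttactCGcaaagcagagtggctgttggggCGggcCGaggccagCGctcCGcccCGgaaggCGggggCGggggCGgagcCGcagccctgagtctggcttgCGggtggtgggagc
Tnfsf14: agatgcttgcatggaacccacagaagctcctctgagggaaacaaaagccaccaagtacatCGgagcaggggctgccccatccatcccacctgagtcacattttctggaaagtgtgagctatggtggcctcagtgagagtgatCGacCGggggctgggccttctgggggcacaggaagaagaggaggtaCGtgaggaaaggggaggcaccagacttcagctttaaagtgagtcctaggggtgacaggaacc

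A match to the κB consensus, the motif bound by NF-κB dimers, was searched on both strands. It was present in 4 of the 39 windows of members (10.3%) and in 7.97% of the 20439 windows of all protein-coding genes. The windows belong to Tnfrsf9, Tnfrsf8, Tnfrsf25 and Ltb, of which only Tnfrsf9 was detected. In Tnfrsf9 the match lies upstream of the second annotated start (chr4:150927749-150927998, plus strand), where 2 matches overlap, with their first bases 43 and 42 bases before the start. In Ltb (chr17:35194257-35194506, plus strand) 1 match begins 87 bases before the start. Both windows follow, 5′ to 3′, as the detected and an undetected gene with a match, with the matches in capitals. A match does not show that the factor binds, and a window without one says nothing of sites elsewhere.
Tnfrsf9: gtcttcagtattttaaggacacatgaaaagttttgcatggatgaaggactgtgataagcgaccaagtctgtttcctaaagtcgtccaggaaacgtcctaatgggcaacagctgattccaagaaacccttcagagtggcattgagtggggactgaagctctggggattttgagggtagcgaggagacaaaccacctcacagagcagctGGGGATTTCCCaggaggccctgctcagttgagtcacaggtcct
Ltb: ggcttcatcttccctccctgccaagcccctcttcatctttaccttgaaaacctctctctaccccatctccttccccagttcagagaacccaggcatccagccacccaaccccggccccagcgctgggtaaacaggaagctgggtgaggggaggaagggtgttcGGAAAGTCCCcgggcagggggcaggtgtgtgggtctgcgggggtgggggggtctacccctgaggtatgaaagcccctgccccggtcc

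Of 2 other short motifs, the GC box GGGCGG, the letters bound by Sp1, or its complement CCGCCC was in 9 of 11 windows of detected members (81.8%) and in 9 of 28 windows of the others (32.1%), against 59.6% and 25.2% for all detected and undetected genes. TATAAA or its complement TTTATA was in 2 of 11 windows of detected members (18.2%) and 5 of 28 of the others (17.9%), against 6.22% and 17.7% for all detected and undetected genes. With 11 windows of detected members, each match moves these shares widely, and no difference was tested. Among windows with TATAAA were those of Tnf and Lta, neither of which had a count.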

How the data were processed

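The deposited tables hold raw counts per Entrez gene ID, 1 library each, as the authors' counter wrote them. The submitters' processing notes name CASAVA, STAR, featureCounts and build mm10. Tool versions, gene models, strandedness and the treatment of reads shared by genes are not stated. Per the labels' protocols, cells were lysed, RNA was reverse transcribed without extraction and amplified for 10 cycles, and libraries were made by tagmentation, so reads come from along the transcript and longer genes collect more. The 12 tables were compared byte by byte and 9 were left out as copies of IL-1 replicate 3.

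Symbols and positions came from RefSeq (GRCm38.p6, the assembly behind mm10), which matched 25275 of 27179 IDs, and exon and transcript lengths from GENCODE M21. CPM used library totals. Scaling by edgeR 4.0.16 (R 4.3.3), with TMM or relative log expression factors, was an alternative, as were other minimum levels, another length and leaving out each library. The spread expected from counting alone was the square root of the mean. Scripts (Python 3.11.15, pandas 2.3.3) were tested on simulated data. With 1 group no test was made. Members, receptor and ligand pairs, pathway and marker lists were chosen with earlier results of these data known, the lists and pairs from general knowledge. The list of interferon-stimulated genes and the comparison of decoys between libraries were not planned beforehand. All detected members, every partner in a pair, undetected members by name, the 6 highest and the undetected pathway genes, and defining markers were named by rule; Adam17, Map3k14, the clusters and the promoter features were chosen after values were seen.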

Additional observations from a re-analysis of the deposited data

How the results depend on the processing

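No paired analysis was possible because there was no second group of libraries to pair with. The 15 detected members, 13 receptors among them, remained the same genes with TMM and relative log expression factors and without each library in turn. A minimum of 0.5 CPM, or of 10 counts in every library, added Tnfsf10 and Tnfsf11, so that 4 ligands in place of 2 and 8 pairs in place of 2 were detected. A minimum of 2 CPM removed Tnfsf12 and left 1 ligand and 1 pair. The receptor sum was 74.9 times the ligand sum with the longest transcript as length, in place of 48.7 ± 5.45, since the merged exons of Tnfrsf12a (1932 bases) are longer than its longest transcript (984 bases). With that length 8 of the 15 ranks per kb were unchanged and 4 moved by more than their spread over libraries, Tnfrsf10b from 11 to 8 among them. All 30 means recomputed with other factors lay within 1 SD. Means without 1 library could not differ by an SD in any case, and the ratio of sums was then 45.6 to 50.7. Depth limits what can be said of members below 1 CPM.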
